A study of Rattus norvegicus with 78 samples.

Results

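The amygdala of 7-day-old male rat pups whose mothers drank paroxetine was compared with that of pups whose mothers drank plain water. The 4 exposed and 5 control arrays were taken by their labels and make up 9 of the 78 arrays of the series, which covers 2 brain regions at 4 ages. All pups came from a rat line bred selectively as low responders, and exposed and control pups share that background. Exposed dams received 10 mg per kg per day of paroxetine, an antidepressant that blocks the serotonin transporter, from 1 week before conception until weaning on day 21. The exposed pups were therefore still suckling from treated dams when sampled at P7. The question was whether exposure through the mother changed gene expression in the young amygdala. Litter and any pooling of animals are not given in the labels, so p-values measure a spread between arrays, which may be partly technical. That spread was taken over all 39 amygdala arrays rather than these 9 alone, and precision is also set by how few arrays there are. The tissue is bulk, so fewer cells of a type and less RNA per cell cannot be told apart.

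Each array reports the brightness of 26419 features, of which 9659 stand for a named gene. Values are log2 intensities as deposited by the authors, and differences are exposed minus control on that scale, with the standard error of the limma fit after the ± sign, over 4 exposed and 5 control arrays. A gene is said to have risen or fallen only where its Benjamini-Hochberg adjusted p in that fit was under 0.05. The fit took its estimate of spread from all 39 amygdala arrays. A level is the brightness of a probe, so levels are not set against each other between genes.

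Serotonin reaches the forebrain before birth and acts there as a growth signal as well as a transmitter. Its transporter, encoded by Slc6a4 and made by the raphe neurons of the brainstem, is the target of paroxetine. In the first postnatal weeks of the rat the amygdala is still forming synapses, its oligodendrocyte precursors are only beginning to make myelin, and its cells make most of their own cholesterol. The central and medial nuclei also hold inhibitory neurons that resemble those of the striatum.

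Markers of region gave a mixed picture. In control pups 5 of 12 measured amygdala and piriform genes were higher than in the hippocampus of control pups of the same age and 1 was lower, with Nr2f2 at 11.41 against 9.597 and Dlk1 at 9.50 against 8.37. Of 6 measured hippocampal genes, 2 were lower in the amygdala, the granule cell gene Neurod1 (7.16 against 10.01) and Rfx3 (10.89 against 11.79), while 3 were higher there, Wfs1 (10.49 against 8.71), Trhr (7.35 against 6.13) and Tdo2 (6.13 against 5.30). Of 18 measured genes of striatal projection neurons, 12 were higher in the amygdala than in the hippocampus and none was lower, among them Penk at 13.63 against 10.13. Within a group, pairs of arrays had correlations of 0.946 to 0.980 with a median of 0.960, and pairs of 1 control and 1 exposed array had 0.939 to 0.961 with a median of 0.953.

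Some array measures that belong to no gene separated the groups. A control probe of random sequence read 48.5, 48.6, 49.0, 49.0 and 49.3 on the control arrays and 45.5, 47.1, 43.0 and 42.9 on the exposed arrays, in linear intensity. All exposed arrays were below all control arrays (exact two-sided permutation p = 0.0159, the smallest these group sizes allow). In the hippocampus at P7 the same probe was higher on exposed arrays, with means of 52.97 and 43.97. The interquartile range of log2 intensity was 3.31 to 3.44 on exposed and 3.03 to 3.21 on control amygdala arrays (exact permutation p = 0.0159). The median was 7.87 to 8.02 on exposed and 7.76 to 7.90 on control arrays, which overlapped (exact permutation p = 0.0476). With the random probe as a covariate, 106 features were called higher and 163 lower. Of 779 genes called without it, 51 kept their call in the same direction with it, and 774 kept their sign. Since the probe separated the groups fully, this fit cannot tell the probe from exposure, whether a call is kept or lost. The same holds wherever the covariate is used below.

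The control arrays were not alike in their myelin genes. Controls 1 to 3 were high in Mbp, the gene of myelin basic protein, and controls 4 and 5 low, as the values given with the oligodendrocyte genes show. The labels give no reason for this, so the genes that split this way are also given without controls 4 and 5 and without controls 1 to 3.

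Exposure went with more rises than falls. Of the 26419 features, 1496 (5.66%) were higher in exposed pups and 573 (2.17%) were lower, 7.83% in all, and of the 9659 named genes 611 (6.33%) rose and 168 (1.74%) fell. The median difference of all named genes was 0.09. Among the 4898 named genes above the median level of all features, 9.92% rose and 0.939% fell (10.9% in all), so rises lay mostly among well expressed genes and falls among dim ones, as the plot of difference against level shows. The brightest 10% of features had a median difference of 0.09, near the 0.08 of all features, and the dimmest 10% one of -0.08. After quantile normalization the split was 522 higher and 570 lower. The groups did not overlap for 979 named genes (10.1%). Exposed replicates 3 and 4 carried many of the calls: 674 features were higher and 287 lower without the former, and 699 and 296 without the latter. Without control 5, 978 were higher.

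**Figure D1:**
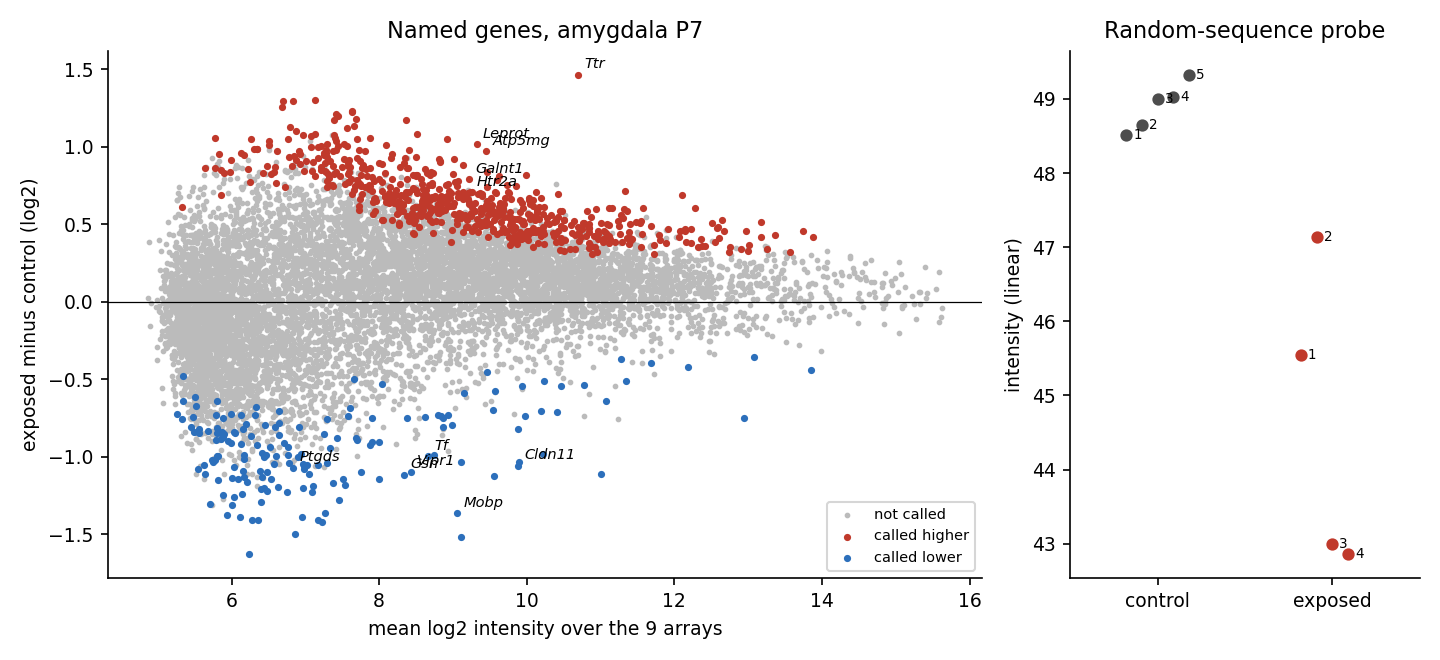
The left panel plots the exposed minus control difference (log2) of each of the 9659 named genes against its mean log2 intensity over the 9 arrays, with called genes coloured. The right panel gives the linear intensity of the random-sequence probe on each array, numbered by replicate; all 4 exposed arrays lie from 42.9 to 47.1 and all 5 control arrays from 48.5 to 49.3.

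The number of calls depended strongly on the other amygdala arrays that lent their estimate of spread. A limma fit of the 9 arrays alone called 5 features, all higher and all among those called with 39 arrays, while 4912 of the 26419 had an unadjusted p under 0.05. Ttr was the only named gene among the 5. The authors' deposited table for this comparison lists 3 genes, all higher in exposed pups, which passed its Bonferroni-corrected t-test and its minimum fold of 1.5. They are Galnt1, with a fold of 1.73 and a corrected p of 0.0243 in the authors' deposited table, Atp5mc3 (1.64 and 0.0164) and Atp5mg (1.96 and 0.0445). The authors' deposited table corrected for about 6652 tests, and a t-test of all 26419 features here left 1 feature past the same limits and 175 after Benjamini-Hochberg adjustment.

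Transthyretin showed the largest rise among named genes above the median level. Ttr encodes the thyroid hormone carrier that the choroid plexus secretes into the cerebrospinal fluid. Its level was 10.26, 10.18, 9.90, 10.25 and 9.66 in controls and 11.56, 11.51, 11.42 and 11.58 in exposed pups. The exposed values lay within a narrow band above every control, a rise of 1.47 ± 0.34 (2.76-fold, adjusted p = 0.00899). The other 13 measured markers of the choroid plexus were not called, and their mean level, with Ttr left out, was 6.91 to 7.26 in controls and 7.21 to 7.27 in exposed pups, which overlapped. Among them Folr1 (0.22), Kcne2 (0.48), Enpp2 (0.52) and Clic6 (-0.20) are markers of that tissue. The part of choroid plexus tissue in the rise of Ttr was not tested beyond these values. In the amygdala at P14 the difference of Ttr was -1.86 ± 0.32, and the P14 difference was lower than the P7 difference (-3.32 ± 0.47 on the log2 scale, adjusted p = 6.15e-06). In the hippocampus at P7 it was 2.35 ± 0.27, which did not pass the test of the difference between regions (0.88 ± 0.39, adjusted p = 0.0507). There 8 of the 14 choroid plexus markers, Ttr among them, were higher and 0 lower, with a median of 0.75. Of all named genes 18.2% were higher and 34.0% lower there. In the amygdala at P14, 4 of the 14 were higher and 4 lower, against 13.9% and 20.9% of all named genes.

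The 3 genes of the authors' table were separated on every array here too. Atp5mg, a subunit of the mitochondrial ATP synthase, read 9.07, 8.95, 9.15, 8.87 and 9.07 in controls and 10.09, 10.02, 10.07 and 9.80 in exposed pups, a rise of 0.97 ± 0.16 (adjusted p = 0.000826). Atp5mc3 forms part of the rotating ring of the same enzyme. It read 11.02, 10.91, 11.07, 11.07 and 10.98 in controls and 11.66, 11.85, 11.74 and 11.66 in exposed pups, a rise of 0.72 ± 0.14. Galnt1 encodes an enzyme that starts O-linked sugar chains on secreted proteins. It read 8.76, 8.92, 8.92, 8.99 and 8.73 in controls and 9.61, 9.70, 9.68 and 9.65 in exposed pups, a rise of 0.79 ± 0.13 (adjusted p = 0.00102). For these genes the gap between the groups was wider than the range within either.

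The other large rises came from genes of many kinds. Leprot, transcribed from the leptin receptor locus and known to hold that receptor inside the cell, rose by 1.02 ± 0.16 and had the smallest adjusted p of the genes named here (0.000605). Its levels of 8.56 to 9.32 in controls and 9.63 to 10.09 in exposed pups did not overlap. Psma5, a subunit of the proteasome core, read 8.24 to 8.73 in controls and 9.31 to 9.68 in exposed pups and rose by 1.05 ± 0.20. Jam3, a junctional adhesion molecule, rose by 1.01 ± 0.19. Mthfd1, an enzyme of folate metabolism, rose by 0.92 ± 0.15 (adjusted p = 0.000785).

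Among the 15 largest rises above the median level were also Hspa14, an Hsp70 relative (1.18 ± 0.25), the depalmitoylase Lypla1 (1.06 ± 0.21), Ankra2 (1.08 ± 0.22) and the methyltransferase Ntmt1 (0.98 ± 0.23). Selenok, a selenoprotein of the endoplasmic reticulum, Higd1a, an inner mitochondrial membrane protein, and Cacna2d1, the calcium channel subunit to which gabapentin binds, each rose by 0.93. Of these 15 genes, Selenok alone had overlapping groups, with a highest control of 8.72 and a lowest exposed value of 8.65. H2az2l2 and Dcun1d5 lost their call after quantile normalization and on leaving out most single arrays. With the random probe as a covariate Leprot, Selenok and Mthfd1 kept theirs.

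**Figure D2:**
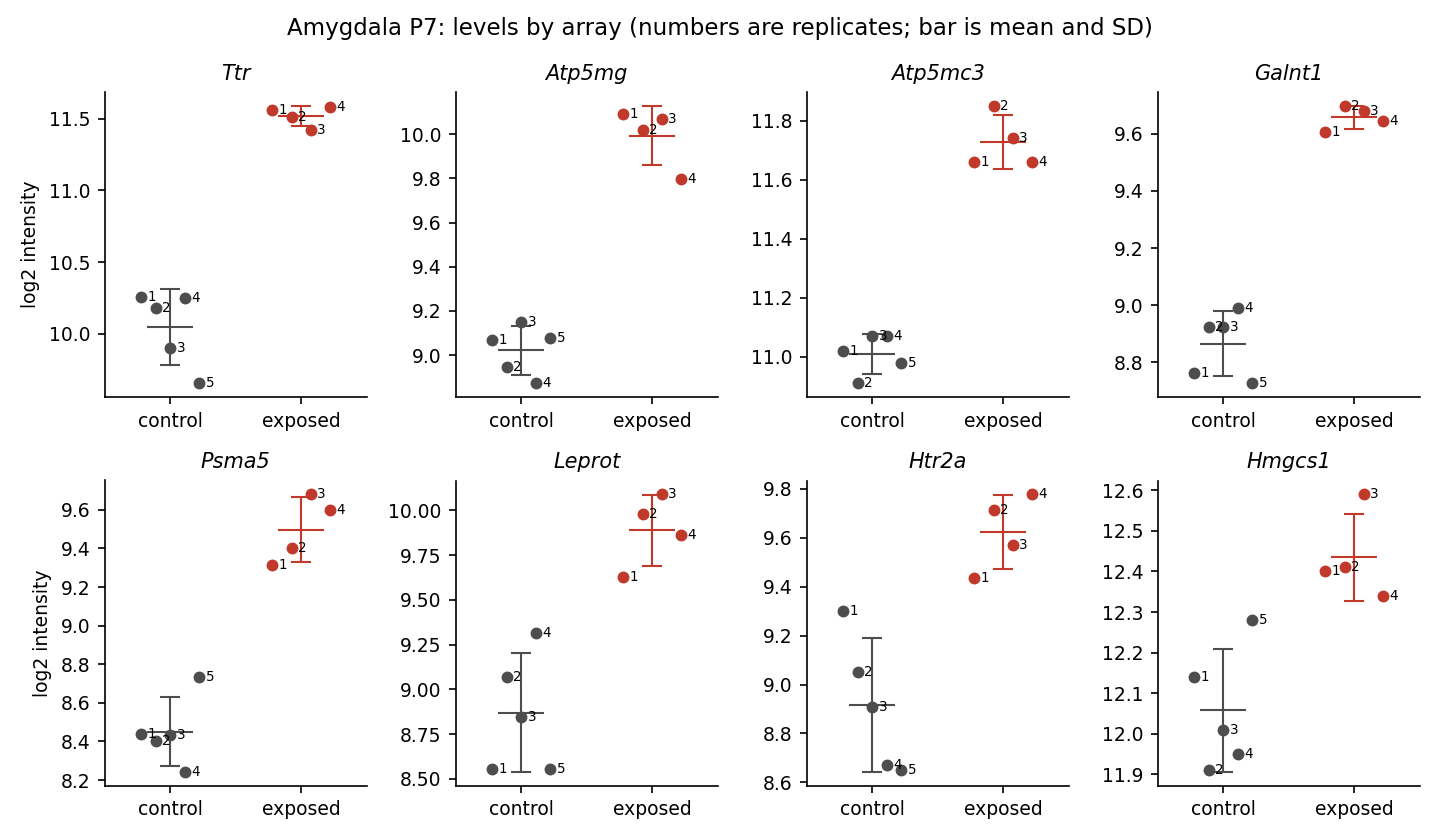
Log2 intensity of 8 genes that rose, on each of the 5 control and 4 exposed arrays at P7, numbered by replicate, with the mean and SD of each group. The exposed arrays lie above all control arrays in every panel.

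Falls were fewer and more scattered. Gsn, which encodes the actin-severing protein gelsolin, read 8.77, 9.03, 8.60, 8.88 and 8.87 in controls and 7.56, 6.98, 8.07 and 8.26 in exposed pups. The groups did not overlap and the fall was -1.11 ± 0.21 (adjusted p = 0.00218). Tf, the iron carrier transferrin, which oligodendrocytes make in the brain, read 9.19, 9.53, 9.72, 8.75 and 8.35 in controls and 8.45, 8.03, 8.06 and 7.92 in exposed pups. Exposed pup 1 lay above control 5, and the fall of -0.995 ± 0.21 was -1.37 without controls 4 and 5 and -0.44, not called, without controls 1 to 3. Gsn was called without either set of controls.

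The smooth muscle genes Acta2 and Tagln fell together. Acta2 read 10.36 to 10.78 in controls and 9.48 to 10.10 in exposed pups (-0.70 ± 0.15), and Tagln 9.01 to 9.26 against 8.20 to 8.68 (-0.74 ± 0.17), with no overlap in either. They were the 2 called among 18 measured genes of endothelium and pericytes (11.1%, against 1.74% of all named genes that fell). The median difference of that list was 0.04. The epithelial keratins Krt25 (-1.15 ± 0.25) and Krt20 (-0.98 ± 0.28) fell, as did Vipr1, a receptor for vasoactive intestinal peptide (-1.09 ± 0.30), and the chemokine Ccl25 (-0.99 ± 0.31). Vipr1 and Ccl25 had overlapping groups, and 1 exposed array read 6.38 for Vipr1 against 7.89 to 8.58 on the others. The largest fall above the median level was that of Mettl21cl1 (-1.52 ± 0.42), whose control range of 8.73 to 10.58 overlapped the exposed range of 7.23 to 9.29. Mettl21cl1 was not called without control 2, control 4, exposed replicate 3 or exposed replicate 4.

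Receptors of the nose, which brain tissue hardly expresses, leaned downward as a class. Of 1256 measured olfactory and vomeronasal receptor genes, 58 (4.62%) fell and 3 (0.239%) rose, against 1.74% and 6.33% of all named genes. Their median difference was -0.21, against 0.09 for all named genes. Only 50 of the 1256 lie above the median level, and falls lay mostly among dim genes in general, so dimness and class cannot be told apart here. Their mean level was 6.03 to 6.07 in controls and 5.70 to 5.94 in exposed pups, without overlap. The random-sequence probe was lower on the same exposed arrays, and with it as a covariate the receptors' median was -0.03, with 7 lower and 8 higher. Or4d2 (-1.03 ± 0.28), Or8b57 (-1.03 ± 0.32) and Or2aa1 (-0.91 ± 0.29) were the receptors among the 15 largest falls above the median level.

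Genes of mature oligodendrocytes were lower in exposed pups on average, and this rested on controls 1 to 3. Mbp, a major protein of compact myelin, read 12.38, 12.37, 12.28, 10.48 and 10.35 in controls and 10.98, 11.12, 10.56 and 10.60 in exposed pups. The exposed arrays lay between the high and the low controls, and the difference of -0.76 ± 0.26 was not called (adjusted p = 0.0662). It was -1.53 and called without controls 4 and 5, and 0.40 and not called without controls 1 to 3. Mobp, another protein of compact myelin, read 11.25, 10.78, 10.76, 7.86 and 7.67 in controls and 7.95, 9.01, 8.46 and 7.78 in exposed pups (-1.36 ± 0.42, adjusted p = 0.0407). The SD of Mobp was 1.74 in controls and 0.55 in exposed pups, while its standard error rests on the spread over all amygdala arrays. Cldn11, the claudin that seals the myelin sheath, read 10.77, 11.26, 11.17, 9.27 and 9.29 against 9.42, 9.93, 8.66 and 9.17 (-1.06 ± 0.27, adjusted p = 0.0132). Both genes were called, although controls 4 and 5 lay within or below the exposed range of Mobp and inside that of Cldn11.

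Of 16 measured myelin and oligodendrocyte genes, 3 fell (Mag, Mobp and Cldn11), none rose and 13 were not called, with a median difference of -0.51. The share that fell was 18.8%, against 1.74% of all named genes. Mag, an adhesion protein on the inner face of the sheath, fell by 0.73 on the log2 scale, with -0.93 without controls 4 and 5 and -0.43, not called, without controls 1 to 3. Mog, a glycoprotein of the outer face of the sheath, was at -0.53 ± 0.24 and was not called. Cnp, an enzyme that oligodendrocytes make from an early stage, was at 0.01 ± 0.14. The mean level of the list was 9.58, 9.57, 9.42, 8.31 and 8.60 in controls and 8.82, 8.85, 8.61 and 8.50 in exposed pups. Without controls 4 and 5, 9 of the 16 fell and the median was -0.92. Mobp was then at -2.63. Without controls 1 to 3 none was called, the median was 0.28, and the differences of Mobp (0.53) and Cldn11 (0.01) had the opposite sign. Leaving out single arrays moved the count to 8 without control 4, 5 without control 5 and 0 without exposed replicate 3.

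Of the precursor markers, 2 rose. Ptprz1, a receptor phosphatase of precursors and astrocytes, read 11.14, 11.27, 11.01, 11.44 and 11.38 in controls and 11.91, 11.74, 11.79 and 11.63 in exposed pups, a rise of 0.52 ± 0.13 with no overlap. Gpr17, a receptor on cells about to become oligodendrocytes, read 11.95, 12.07, 12.16, 11.81 and 11.97 against 12.25, 12.45, 12.44 and 12.37 (0.38 ± 0.10). All 6 measured precursor markers had differences above 0, with a median of 0.26, and these 2 were called (33.3%), against 9.92% of genes above the median level, where all 6 lie. With the random probe as a covariate none was called. Sox10, a transcription factor of the whole lineage, was at 0.24 ± 0.13 and not called. The call of Ptprz1 was lost without controls 1 to 3 and that of Gpr17 without controls 4 and 5, without exposed replicate 2 and without exposed replicate 3.

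**Figure D3:**
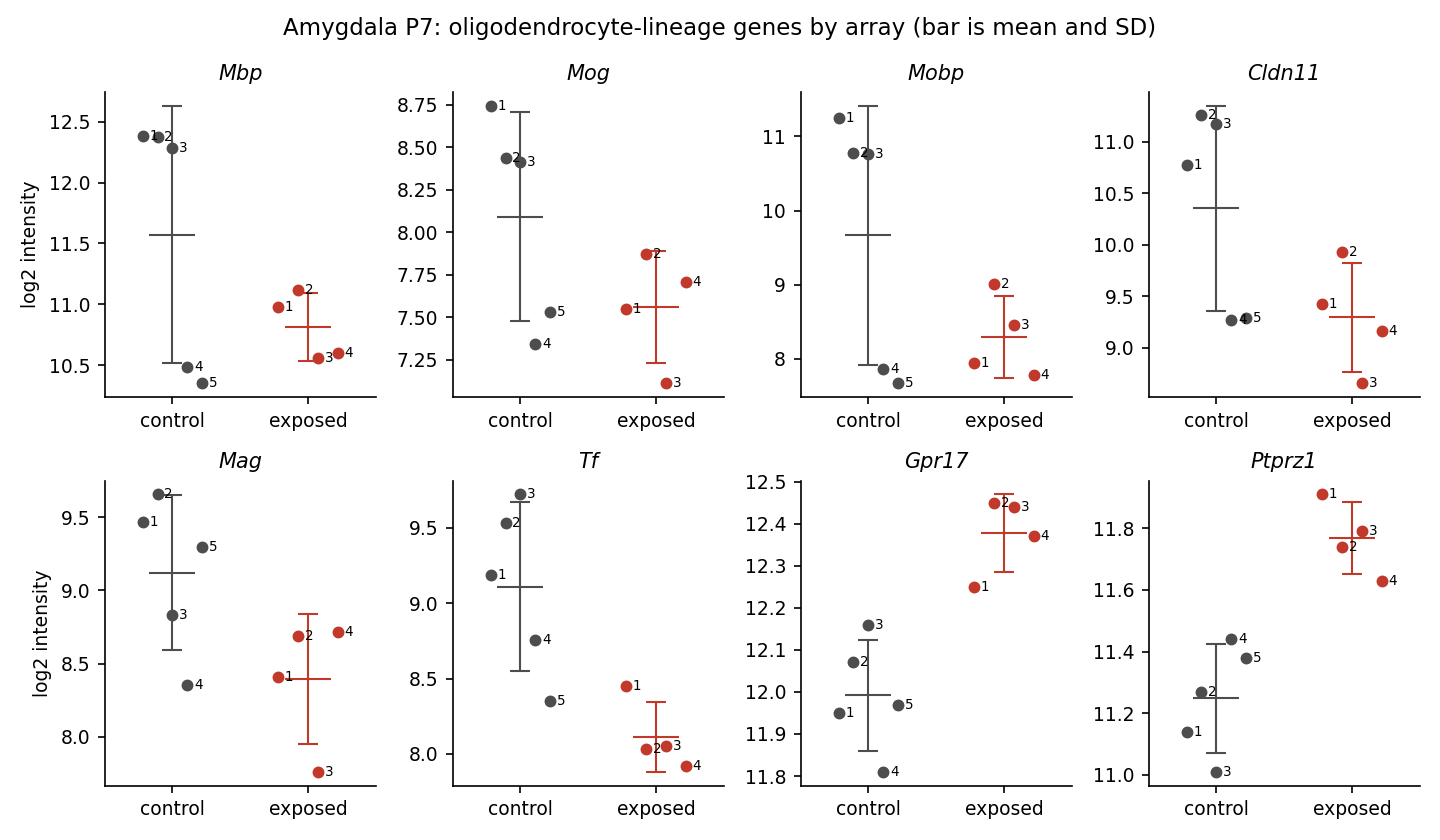
Log2 intensity of 6 genes of myelin and oligodendrocytes (Mbp, Mog, Mobp, Cldn11, Mag, Tf) and 2 precursor genes (Gpr17, Ptprz1) on each control and exposed array at P7, numbered by replicate, with mean and SD. Controls 1 to 3 lie above controls 4 and 5 for Mbp, Mog, Mobp, Cldn11 and Tf, while exposed arrays lie above all controls for Gpr17 and Ptprz1.

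Part of the cholesterol synthesis pathway rose in exposed pups. Of 24 measured genes, 5 rose (20.8%), none fell, 23 had differences above 0, and the median was 0.30, against a rise of 9.92% of genes above the median level, where 23 of the 24 lie, and of 6.33% and a median of 0.09 over all named genes. The mean level of the list was 10.08 to 10.14 in controls and 10.36 to 10.46 in exposed pups. Members rose in the late steps, where the ring system is trimmed, and in the early ones. Msmo1, a methyl sterol oxidase of the late pathway, read 9.43, 10.13, 9.68, 10.02 and 9.68 in controls and 10.58, 10.34, 10.38 and 10.50 in exposed pups (0.66 ± 0.13, adjusted p = 0.00357). Nsdhl, which acts with it, read 11.01, 10.75, 10.96, 11.08 and 11.19 against 11.67, 11.53, 11.38 and 11.49 (0.52 ± 0.10, adjusted p = 0.00349). The groups did not overlap for either enzyme.

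The remaining calls of the pathway were smaller. Cyp51, the lanosterol demethylase, rose by 0.46 ± 0.14. Fdps, which makes farnesyl diphosphate, rose by 0.43 ± 0.13. Hmgcs1, an enzyme of the first steps, rose by 0.38 ± 0.12 (adjusted p = 0.0471). After quantile normalization 2 of the 24 remained above the threshold, and with the random probe as a covariate none did, at a median of 0.12. Without controls 4 and 5, or without controls 1 to 3, the count was 2. Leaving out control 3, exposed replicate 3 or exposed replicate 4 also left 2, and leaving out control 4, exposed replicate 1 or exposed replicate 2 left 3.

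Promoters of this pathway are shown because 5 of its members rose and genes of the pathway are known to share regulation by SREBP factors with NF-Y, a factor that binds CCAAT boxes. The 250 bases before the annotated start of 4 members that rose are given below 5′ to 3′ from RefSeq on build GRCr8, with each CCAAT or its reverse complement in capitals. They lie at chr2:53382054-53382303 on the plus strand for Hmgcs1, chrX:155817110-155817359 on the plus strand for Nsdhl, chr16:29746863-29747112 on the plus strand for Msmo1, and chr2:176804817-176805066 on the minus strand for Fdps.
Hmgcs1: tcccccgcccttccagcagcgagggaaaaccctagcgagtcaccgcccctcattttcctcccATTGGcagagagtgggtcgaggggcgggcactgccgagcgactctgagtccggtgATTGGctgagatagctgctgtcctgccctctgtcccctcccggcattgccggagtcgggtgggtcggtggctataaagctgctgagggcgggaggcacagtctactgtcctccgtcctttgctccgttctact
Nsdhl: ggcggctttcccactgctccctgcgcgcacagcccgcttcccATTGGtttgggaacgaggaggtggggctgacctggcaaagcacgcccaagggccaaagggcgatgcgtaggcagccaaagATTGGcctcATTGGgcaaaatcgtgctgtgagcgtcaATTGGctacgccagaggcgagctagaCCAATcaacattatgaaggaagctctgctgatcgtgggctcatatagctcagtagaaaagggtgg
Msmo1: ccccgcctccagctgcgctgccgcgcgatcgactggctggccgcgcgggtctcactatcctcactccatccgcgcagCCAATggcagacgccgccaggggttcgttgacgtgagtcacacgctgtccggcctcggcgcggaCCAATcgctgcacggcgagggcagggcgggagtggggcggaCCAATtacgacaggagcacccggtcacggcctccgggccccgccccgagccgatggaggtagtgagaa
Fdps: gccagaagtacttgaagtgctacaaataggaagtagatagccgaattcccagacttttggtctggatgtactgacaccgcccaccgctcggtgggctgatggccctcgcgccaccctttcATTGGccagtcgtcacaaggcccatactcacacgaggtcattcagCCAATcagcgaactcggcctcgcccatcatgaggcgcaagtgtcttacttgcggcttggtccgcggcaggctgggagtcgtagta

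Hmgcs1 and Fdps held 2 CCAAT matches each, Msmo1 held 3 and Nsdhl 5. Over either strand, 14 of the 17 measured members with a promoter sequence held CCAAT (82.4%), against 34.3% of all 27457 promoters and 36.3% of those of named genes above the median level. Of the 5 members that rose, 4 held it, and Cyp51 did not. A stricter motif for a sterol regulatory element, TCACNCCAC, was in none of the 17 and in 0.976% of all promoters. These matches describe sequence and were not tested as binding sites.

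Of 17 measured genes of fatty acid synthesis, 4 rose (23.5%), 1 fell (5.88%) and 12 were not called. Of genes above the median level, where 15 of the 17 lie, 9.92% rose and 0.939% fell. Of all named genes 6.33% rose and 1.74% fell. In the list 16 had differences above 0, with a median of 0.27. Acsl1, which activates long-chain fatty acids, read 7.56 to 8.78 in controls and 8.97 to 9.18 in exposed pups (0.83 ± 0.21). The desaturases Scd (0.59 ± 0.16) and Fads2 (0.36 ± 0.12) rose, as did Me1, a source of NADPH (0.57 ± 0.13). Acacb, the mitochondrial acetyl-CoA carboxylase that restrains fatty acid oxidation, fell by 0.94 on the log2 scale and lies below the median level. Fads2 and Acacb lost their calls on leaving out most single arrays, and Scd without control 3, exposed replicate 2 or exposed replicate 4. Of these 5 genes Scd kept its call with the random probe as a covariate, and after quantile normalization none of the 17 was called.

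Several proteasome genes rose. Of 28 measured subunit genes, 9 rose (32.1%, against 9.92% of genes above the median level, where 24 of the 28 lie), none fell and 26 had differences above 0, with a median of 0.42. This family, like the vacuolar proton pump, was added after Psma5 was seen among the largest rises, so its count is a description. Its mean level was 9.62 to 9.77 in controls and 10.03 to 10.12 in exposed pups. Psmb1, a subunit of the core particle, read 9.47, 9.28, 9.16, 9.08 and 9.26 in controls and 9.84, 9.98, 10.14 and 9.89 in exposed pups (0.71 ± 0.14, adjusted p = 0.00351). Psmd10 (0.98), a chaperone of proteasome assembly that lies below the median level, and Psmd4 (0.63), a ubiquitin receptor of the regulatory particle, rose as well. After quantile normalization 4 of the 28 were called, and with the random probe as a covariate none.

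Some genes of oxidative phosphorylation rose too. Of 56 measured, 12 rose (21.4%, against 9.92% of genes above the median level, where 52 of the 56 lie), none fell and 49 had differences above 0, with a median of 0.22. Members of complexes I to V rose. Uqcrfs1, the iron-sulphur subunit of complex III, read 9.46, 9.48, 9.33, 9.32 and 9.36 in controls and 9.80, 10.35, 10.07 and 10.38 in exposed pups (0.76 ± 0.16, adjusted p = 0.00452). It kept its call with the random probe as a covariate, when it was the only member called. After quantile normalization 5 were called, without controls 4 and 5 there were 6, without control 5 there were 7 and without exposed replicate 4 there were 6. Sdhd, the membrane anchor of complex II, rose by 0.59 ± 0.13, Cox7a2 of complex IV by 0.77 ± 0.21, and Uqcrc2 of complex III by 0.53 ± 0.13. Of complex I, Ndufa10 (0.31) and Ndufs5 (0.46) were called.

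The share of cytosolic ribosomal protein genes that rose was near that of bright genes, but depended on the setting. Of 69 measured, 7 rose (10.1%) and 1 fell, against 9.92% and 0.939% of named genes above the median level, although 58 had differences above 0 and the median was 0.26. Rpl27 rose most (0.70 ± 0.15), with 9.03 to 9.73 in controls and 9.83 to 10.17 in exposed pups. Fau, which encodes a small-subunit protein fused to a ubiquitin-like protein, read 13.96 to 14.27 against 13.52 to 13.66 and fell by 0.44 on the log2 scale. The 7 rises came down to 1 without control 2 or exposed replicate 3, to 2 without exposed replicate 2 or 4, to 3 without control 5 and to 4 without control 3, while all 78 arrays or the test of the brighter features alone gave 16 and trend and robust moderation 14. Of 16 vacuolar proton pump subunits 2 rose (12.5%), with Atp6v1e1 at 0.52 ± 0.10. Of 19 autophagy genes 4 rose (21.1%). Among them were Vmp1, needed to form autophagosomes (0.55 ± 0.13), and the 2 LC3 genes Map1lc3a (0.41) and Map1lc3b (0.38). Of 26 chaperones 3 rose (11.5%), including the stress response factor Atf4 (0.36). The pump and chaperone shares were near the 9.92% of genes above the median level. Most members of these lists, and 17 of the 19 autophagy genes, lie above that level.

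**Figure D4:**
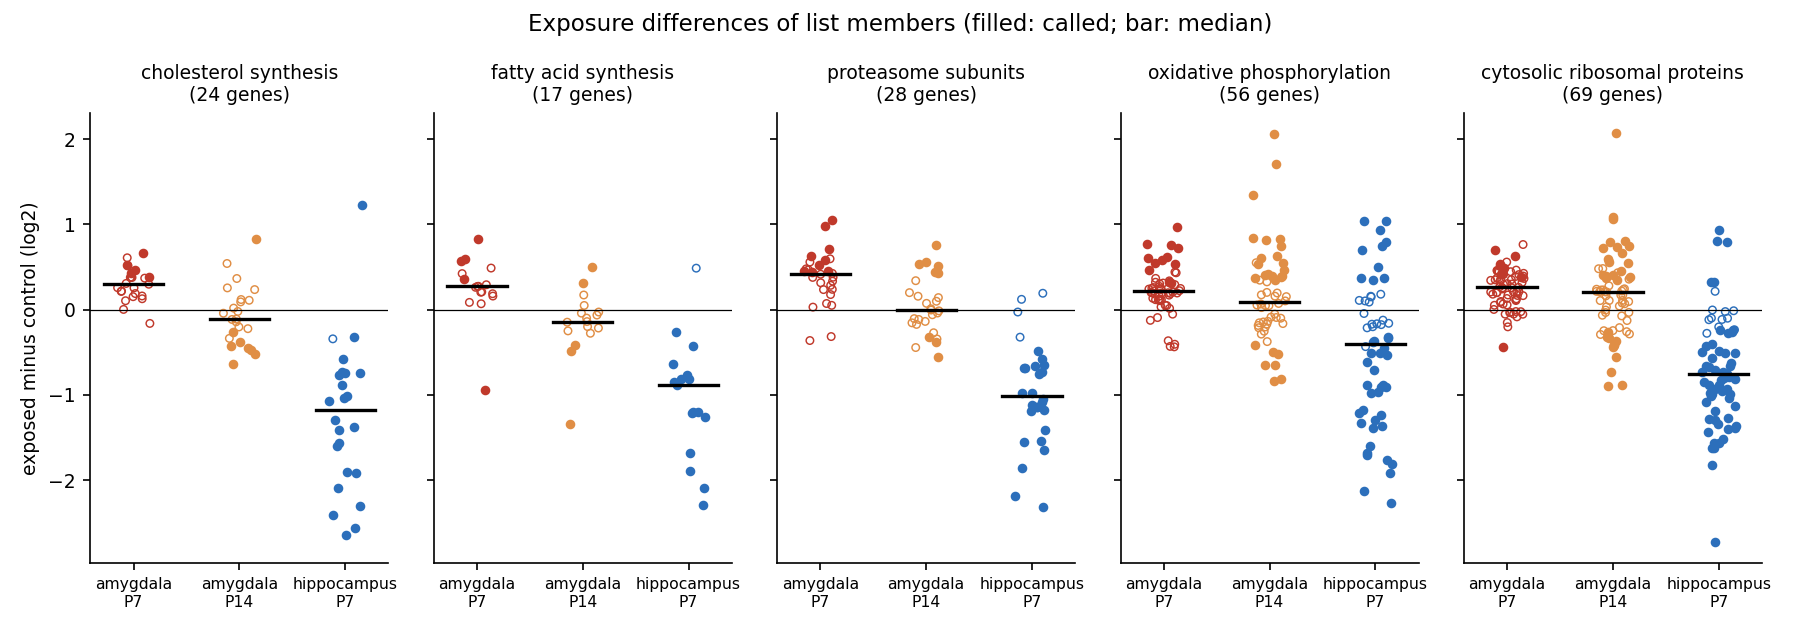
Exposed minus control difference (log2) of each measured member of 5 gene lists in the amygdala at P7 and P14 and in the hippocampus at P7, with filled points for called genes and a bar at the median. Medians at P7 are above 0 in the amygdala in all 5 lists and below 0 in the hippocampus.

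Of the serotonin genes, the receptor gene Htr2a rose and no other was called. Htr2a, an excitatory receptor of pyramidal cells and interneurons, read 9.30, 9.05, 8.91, 8.67 and 8.65 in controls and 9.44, 9.71, 9.57 and 9.78 in exposed pups (0.71 ± 0.16, adjusted p = 0.00667). Every exposed array was above every control, but the call was lost without controls 4 and 5 and with the random probe as a covariate. This is 1 called of 20 measured (5.0%), a share near that of all named genes, and the median of the list was 0.17. Htr1a, the main inhibitory receptor, was at 0.50 ± 0.24 (adjusted p = 0.194). Htr2c was at 0.31 ± 0.27, and its control values of 9.80, 9.73, 9.54, 8.14 and 8.45 split in the same way as those of Mbp. Slc6a4, the target of the drug (-0.44 ± 0.28), and Tph2, the serotonin-making enzyme of the raphe (-0.27 ± 0.33), were dim, at 5.35 to 6.60 and 5.33 to 7.24 over the 9 arrays, and not called.

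Stress genes were called about as seldom at this age as genes in general. Of 31 measured stress peptides and steroid receptors, 1 rose (3.23%, against 6.33% of all named genes). It was the kappa opioid receptor gene Oprk1, with 7.76 to 8.81 in controls and 8.62 to 9.06 in exposed pups, which overlapped (0.71 ± 0.19). Crh, the corticotropin-releasing hormone of the central nucleus, read 8.62, 8.28, 8.77, 7.98 and 7.94 in controls and 7.82, 7.93, 9.31 and 8.67 in exposed pups, and the groups overlapped (0.11 ± 0.35). Its receptor gene Crhr1 was at -0.04 ± 0.24. The glucocorticoid receptor gene Nr3c1 was at 0.52 ± 0.26 (adjusted p = 0.201) and its co-chaperone Fkbp5 at 0.54 ± 0.20 (adjusted p = 0.0879), with 6.89 to 7.28 in controls and 6.98 to 8.20 in exposed pups. Bdnf was at 0.45 ± 0.19 (adjusted p = 0.142). None of 15 neurotrophin genes was called, which in so short a list is near the 8.07% called of all named genes.

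Excitatory synapse genes rose singly. All 21 measured glutamate receptor genes had differences above 0, with a median of 0.23, and 2 (9.52%) were called, close to the 9.92% of genes above the median level. They were Grm5 (0.56 ± 0.13), with 9.59 to 9.90 in controls and 9.92 to 10.55 in exposed pups, and Grm7 (0.41 ± 0.10), which encodes a presynaptic receptor. Slc17a7, the vesicular glutamate transporter of cortical-type neurons, read 12.36, 12.35, 12.43, 12.13 and 12.15 in controls and 12.85, 13.12, 12.58 and 12.62 in exposed pups (0.51 ± 0.11, adjusted p = 0.00486). It was 1 of 3 called among 31 presynaptic genes (9.68%, near the 9.92% of genes above the median level, where all 31 lie), with Vamp1 (0.59 ± 0.14) and Stx1a (0.39 ± 0.11), which belong to the fusion machinery.

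Scaffold genes of the postsynaptic density went both ways. Dlg2 (PSD-93) read 10.96 to 11.14 in controls and 11.53 to 11.77 in exposed pups (0.54 ± 0.11). Shank1 read at least 13.10 in every control and 12.71, 12.86 and 12.97 in exposed replicates 1, 3 and 4, with replicate 2 between them and the controls (-0.35 ± 0.11). The other 25 of 27 postsynaptic genes were not called. Of 23 GABA genes 2 rose (8.7%), the receptor subunits Gabrb1 (0.54 ± 0.13) and Gabra3 (0.39 ± 0.12). Calb1 (0.54), Calb2 (0.51) and Erbb4 (0.47) rose among 12 interneuron markers (25%), whose median was -0.02. Sst (-0.25), Npy (-0.05) and Pvalb (-0.34) were not called. Of 33 voltage-gated channel genes 3 rose (9.09%), including Scn3a (0.62), a sodium channel of immature neurons. The GABA and channel shares were near the 9.92% of genes above the median level that rose, where 11 of the 12 interneuron markers also lie.

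Among 18 immediate early genes, which neurons switch on when active, 3 rose (16.7%). Of genes above the median level, where 13 of the 18 lie, 9.92% rose. The median of the list was 0.10, near the 0.09 of all named genes, and Nr4a3 lay just below the median level. Nr4a3 read 7.04 to 7.79 in controls and 7.92 to 8.56 in exposed pups (0.86 ± 0.20), Egr2 8.27 to 9.03 against 9.01 to 9.20 (0.57 ± 0.14), and Jun 8.20 to 8.96 against 9.00 to 9.48 (0.63 ± 0.19). The groups overlapped for Egr2. Egr1 (-0.07), Arc (-0.04) and Nr4a1 (0.07), members of the same class, were not called. All 3 calls were lost with the random probe as a covariate.

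Genes of striatal-type neurons leaned lower. Of 18 measured, 3 fell (16.7%, against 0.939% of genes above the median level, where 15 of the 18 lie, and 1.74% of all named genes), none rose, and the median was -0.14. Ebf1, a transcription factor of the direct pathway lineage, read 9.28, 9.07, 9.47, 9.11 and 9.35 in controls and 8.55, 8.27, 8.61 and 8.67 in exposed pups (-0.73 ± 0.16, adjusted p = 0.00675). Drd2, the D2 dopamine receptor, read 10.31 to 10.57 against 9.70 to 10.06 (-0.51 ± 0.14), and Gng7, a G protein subunit of striatal neurons, 11.26 to 11.62 against 10.96 to 11.24 (-0.37 ± 0.11). None of these groups overlapped. Ppp1r1b (-0.37), Penk (-0.26) and Rgs9 (-0.18), which mark the same neurons, were not called, and the mean level of the list was 9.36 to 9.75 in controls and 9.39 to 9.52 in exposed pups. Ebf1 and Drd2 kept their calls with the random probe as a covariate but not in the fit of all 78 arrays. Drd2 also lost its call without exposed replicate 2 and without controls 4 and 5. Without controls 1 to 3 the median of the list was 0.05, with 3 lower and 1 higher.

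Calls among markers of other cell types were few, as they were among all named genes (6.33% rose and 1.74% fell). Of 19 astrocyte markers S100b fell, with 9.74 to 10.54 in controls and 9.58 to 9.75 in exposed pups (-0.55 ± 0.11), while Slc1a2 (0.22), Aqp4 (0.18) and Gfap (-0.02) were not called. None was called among 17 microglial, 17 red cell, 14 immature neuron, 19 matrix, 23 Wnt and Notch, 12 amygdala identity and 12 hypothalamic genes. In lists this short such counts are near the shares of all named genes and set no cell type apart. Of 15 meningeal genes, Ptgds, a prostaglandin synthase of the meninges and of oligodendrocytes, read 6.36 to 7.73 in controls and 5.90 to 6.55 in exposed pups, which overlapped at control 5, and fell (-1.07 ± 0.26). Without controls 1 to 3 neither Ptgds (-0.51) nor S100b (-0.31) was called, and without controls 4 and 5 they were at -1.44 and -0.70. Of 18 cell cycle genes, Pcna (0.68) and Ccnb1 (0.92) rose (11.1%, against 6.33% of all named genes), and 17 had differences above 0. Ptgds and Ccnb1 lie below the median level.

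**Figure D5:**
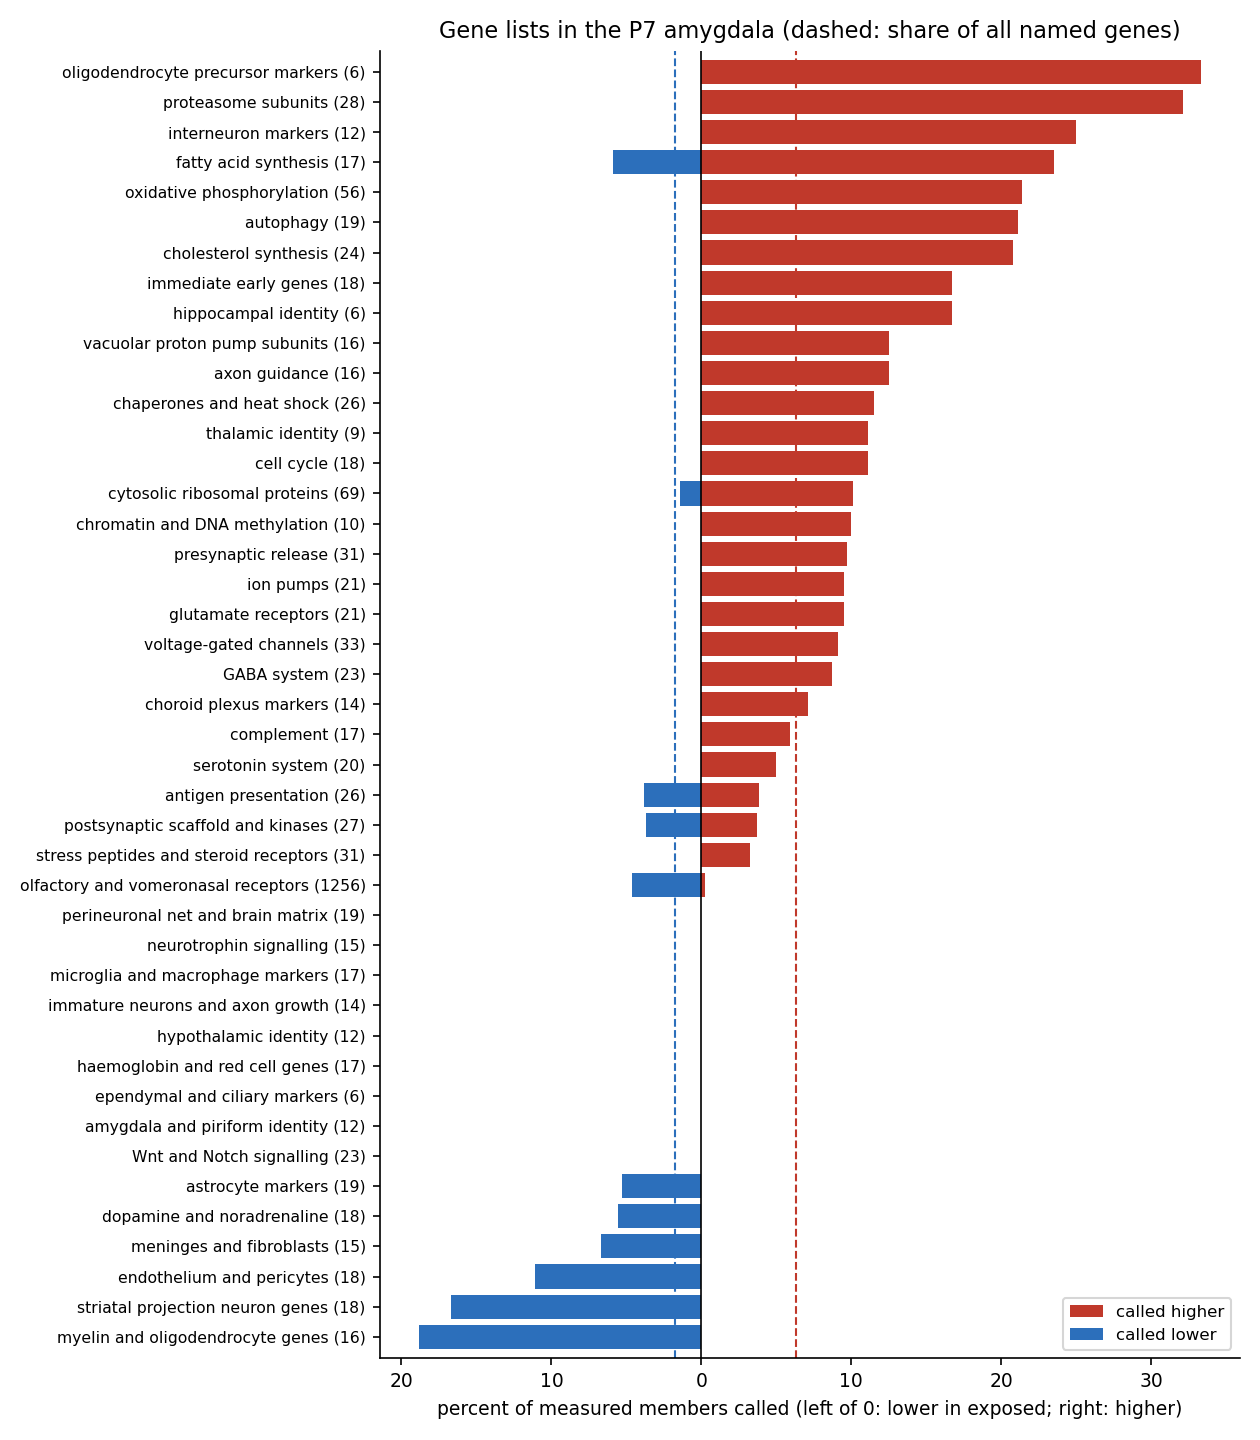
Percent of the measured members of each gene list that were called higher (right) or lower (left) in exposed pups, with the number measured in parentheses. Dashed lines mark the share of all named genes, 6.33% higher and 1.74% lower; the myelin, striatal and vascular lists lie furthest to the left.

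A week later more genes were called in the amygdala. At P14, 13.9% of named genes were higher and 20.9% lower in exposed pups, 34.8% in all. The exposure difference itself differed from that at P7 for 28.5% of named genes, 20.1% being lower at P14, and for 28.9% of all features. Of the 611 genes that rose at P7, 111 (18.2%) rose and 100 (16.4%) fell at P14, which are 8.28% and 4.96% of the genes called there. Of the 168 that fell at P7, 34 (20.2%) rose and 22 (13.1%) fell at P14. Since the difference between ages rests on the same P7 arrays that chose some of these genes, its sizes are partly fixed by that choice.

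Genes with the smallest p for the difference between ages included several that changed direction. Tppp3, a tubulin-binding protein, rose by 0.58 ± 0.14 at P7 and was at -1.35 ± 0.13 at P14 (difference -1.94 ± 0.19, adjusted p = 2.87e-08). Tcf12, a transcription factor of neural progenitors, went from 0.68 ± 0.16 to -1.21 ± 0.15 (adjusted p = 3.83e-07). Fads2 went from 0.36 ± 0.12 to -1.34 ± 0.11 (adjusted p = 1.45e-08). Igf2, the growth factor of meninges and choroid plexus, was at 0.24 ± 0.16 at P7 and -1.64 ± 0.15 at P14, and Akap12 at 0.27 ± 0.11 and -1.09 ± 0.10, neither of them called at P7.

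Among genes described above, Jam3 (difference -1.88 ± 0.26), Galnt1 (-0.89 ± 0.18), Ptprz1 (-1.02 ± 0.18), Nsdhl (-0.78 ± 0.14) and Htr2a (-0.90 ± 0.22) had lower exposure differences at P14. Tf had a higher one (1.67 ± 0.29), being at 0.68 ± 0.20 at P14. Crh, not called at P7, was 1.63 ± 0.33 higher in exposed pups at P14, and its difference between ages was called (1.52 ± 0.49, adjusted p = 0.0182). In the hippocampus at P7 it was at 1.64 ± 0.33. Of 24 cholesterol genes, 10 had a lower exposure difference at P14 than at P7 and 1 a higher one, against 20.1% and 8.39% of all named genes. Of the 24, 23 lie above the median level, and the share among such genes alone is not given.

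The hippocampus of the same age moved the opposite way for many of these genes. There 18.2% of named genes were higher and 34.0% lower in exposed pups. Of the 611 genes that rose in the amygdala, 447 (73.2%) were lower in the hippocampus and 18 (2.95%) higher, the 447 being 13.6% of all genes lower there. Of the 168 that fell in the amygdala, 62 (36.9%) were higher in the hippocampus and 3 lower. The random-sequence probe also moved in opposite directions in the 2 regions, and its part in this was not tested gene by gene. With it as a covariate the number of features whose exposure difference differed between regions went from 5292 higher and 7763 lower in hippocampus to 1419 and 1783, from shares of 20.0% and 29.4%.

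The regions differed most for genes that fell steeply in the hippocampus. Vmp1 was at 0.55 ± 0.13 in the amygdala and -3.50 ± 0.15 in the hippocampus (difference -4.05 ± 0.21, adjusted p = 1.34e-25). Ptprs, a receptor phosphatase of axons and synapses, was at 0.10 ± 0.15 and -3.74 ± 0.14. Sars1, the cytosolic seryl-tRNA synthetase (0.56 and -2.27), Dlg2 (0.54 and -2.35), Snurf of the imprinted Snrpn locus (0.46 and -2.10) and Atp6v1e1 (0.52 and -2.27) rose in the amygdala and were lower in the hippocampus. The same held for Leprot (1.02 and -2.51), Jam3 (1.01 and -1.09) and Atp5mc3 (0.72 and -1.92).

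The gene lists can be read the same way. Of 24 cholesterol genes, 22 had a lower exposure difference in the hippocampus than in the amygdala and 1 a higher one, with Msmo1 at 0.66 ± 0.13 in the amygdala and -2.56 ± 0.16 in the hippocampus. Of 28 proteasome subunits 25 had a lower exposure difference by the same test, of 69 ribosomal proteins 52, and of 56 oxidative phosphorylation genes 34, against 34.9% of all named genes. These lists lie almost wholly above the median level, and the share among such genes alone is not given, so brightness and class cannot be told apart. The P7 amygdala arrays enter this difference, and the proteasome list was added after Psma5 was seen to rise on them. Of 16 myelin genes 8 had a higher and 4 a lower exposure difference in the hippocampus, against 15.7% and 34.9% of all named genes. Mobp was at 1.45 ± 0.34 there (difference 2.81 ± 0.48) and Mbp at 1.08 ± 0.22 (difference 1.84 ± 0.31). These differences became 4.07 and 2.61 without amygdala controls 4 and 5, and 0.91 and 0.69, both still called, without controls 1 to 3. Htr2a was at -0.16 ± 0.17 in the hippocampus, and its difference from the amygdala was called (-0.87 ± 0.24, adjusted p = 0.00213).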

How the data were processed

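RNA of whole amygdala tissue was amplified, labelled with Cy3 and hybridized to single-colour NimbleGen arrays, per the labels' protocols. The values deposited by the authors are normalized intensity, linear and with no log taken, for the 78 arrays together, and their normalization is not given in the sources used here. The authors' deposited comparison table gives the p-value of a t-test, raw and Bonferroni-corrected, and the ratio of the groups as an absolute fold, kept at a fold of at least 1.5. The 312 per-array columns of the comparison tables have names found in no sample's labels, so none was used.

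Of 26420 rows, 1 random control probe was left out of the tests. RefSeq (assembly GRCr8, names only) named 9747 features, another 38 took their name from the deposited tables, and 16634 stayed unnamed; a gene is represented by its brightest feature. Values were taken to log2 with no pseudocount. limma 3.58.1 (R 4.3.3) was fitted to the 39 amygdala arrays with group as the only term, with eBayes and Benjamini-Hochberg adjustment over 26419 features at 0.05. The difference between ages used the same fit, and that between regions a fit of all 78 arrays. Array measures were compared by exact two-sided permutation tests. The fit was tested on simulated data first.

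The text draws on the 15 largest rises and falls among called genes above the median level, up to 4 members of each list with 5 called, 10 serotonin and stress genes at any level, the authors' 3 genes, and 8 genes per difference. Other named genes were chosen after their values were seen. Members and the 41 lists were chosen with earlier results of these data known, and 2 families were added later. Alternatives were quantile normalization, a dim filter, trend and robust moderation, array weights, a replicate block, other sets of arrays, the random probe as a covariate, a pseudocount of 50, plain t-tests and leaving out single arrays; 2 sets of controls were left out after seeing the data. Some members of the lists are not reported by name here.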

Additional observations from a re-analysis of the deposited data

Results flagged for a closer look

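At P7 the exposure difference of the amygdala differed from that of the same region at P14 by the limma test of the difference for several genes described. The P14 difference minus the P7 difference was -3.32 for Ttr, -1.94 for Tppp3, -1.89 for Tcf12, -1.89 for Igf2, -1.88 for Jam3, -1.70 for Fads2 and -1.36 for Akap12. It was -1.02 for Ptprz1, -0.90 for Htr2a, -0.89 for Galnt1 and -0.78 for Nsdhl, and above 0 for Tf (1.67) and Crh (1.52).

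The hippocampal minus the amygdalar exposure difference at P7 was called and below 0 for Vmp1 (-4.05), Ptprs (-3.84), Leprot (-3.53), Msmo1 (-3.22), Dlg2 (-2.90), Sars1 (-2.83), Atp6v1e1 (-2.80), Hmgcs1 (-2.68), Atp5mc3 (-2.64), Snurf (-2.56), Jam3 (-2.10), Nsdhl (-1.93) and Htr2a (-0.87). It was above 0 for Mobp (2.81), Mbp (1.84) and Cldn11 (1.59), which was 0.52 and not called without amygdala controls 1 to 3. Many of these genes were chosen on the P7 amygdala arrays that enter the difference.

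Single arrays stood far from their group for 11 of the genes described, by a test of the gap that chance passes in about 1 of 20 groups. With so many genes described, each with both groups, several such gaps arise by chance alone. These arrays are therefore listed as a description, and none was shown to be faulty. In controls these were replicate 3 for Scd (9.27, the others 9.92 to 10.14) and Bdnf (7.31, the others 8.02 to 8.17), replicate 4 for Fau (14.27), replicate 5 for Gabra3 (10.13) and replicate 2 for Snurf (13.89). In exposed pups they were replicate 1 for Sdhd (10.91), Cox7a2 (8.96) and Rpl3 (10.92), replicate 2 for Fads2 (12.77) and Drd2 (9.70, the others 10.00 to 10.06), and replicate 3 for Ptprs (12.20).

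The random-sequence probe, which belongs to no gene, was lower on exposed than on control arrays, with a difference of -4.27 units of linear intensity and no overlap. Its part in the differences of single genes was not tested beyond the fit that has it as a covariate, which cannot tell the probe from exposure.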

How the results depend on the processing

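The 1496 features higher at P7 became 522 after quantile normalization, 953 with a replicate block, 106 with the random probe as a covariate, 708 without controls 4 and 5, 5 with the 9 arrays alone, and 152 or 1 by t-test after Benjamini-Hochberg or after Bonferroni with a fold. The 573 lower became 163 with the covariate, 366 without controls 1 to 3, 0 with the 9 arrays alone (4912 features in either direction had an unadjusted p under 0.05), and 23 or 0 by those t-tests. Leaving out single arrays gave 674 to 1531 higher and 287 to 596 lower. For the difference between ages (2776 higher, 4849 lower) the covariate gave 1850 and 2313, and the dim filter 1506 higher. For the difference between regions (5292 higher, 7763 lower) the covariate gave 1419 and 1783, and the dim filter 2782 higher. The dim filter leaves fewer features to test.

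The 3 myelin genes that fell became 5 with array weights or all 78 arrays, 6 with the replicate block, 9 without controls 4 and 5, and 0 without controls 1 to 3, with the covariate or with 9 arrays (single arrays left out, 0 to 8). The 5 cholesterol rises became 2 after quantile normalization or without either set of controls, 3 with weights or the block, and 0 with the covariate or 9 arrays (2 to 4). The 12 oxidative phosphorylation rises became 5 after quantile normalization or with the block, 6 without controls 4 and 5, 1 with the covariate and 0 with 9 arrays (6 to 12). The 7 ribosomal rises became 16 with the dim filter or all 78 arrays, 14 with trend and robust moderation, 4 with weights, 3 without controls 4 and 5, 1 after quantile normalization, with the block or without controls 1 to 3, and 0 with the covariate or 9 arrays (1 to 8).

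Of the 83 called genes described, 55 kept their call after quantile normalization, 64 with the replicate block (exposed and control arrays of 1 number share only that number, with r of -0.021 to 0.011 between their deviations, and no array was closest to its own number), 11 with the covariate, 1 with 9 arrays, and 50 to 73 on leaving out single arrays. Without controls 1 to 3, a choice made after seeing the data, 41 kept it and Mobp (0.53) and Cldn11 (0.013) changed sign. The causes of these shifts were not tested. Probes near background carry little signal, so dim genes are the least certain.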

Other observations

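Genes of immunity and growth that the text has not described moved singly. C3ar1, the receptor for complement fragment C3a, which microglia carry in the brain, rose by 1.197 ± 0.23 and was the only one called of 17 complement genes. Of 26 antigen presentation genes, the class II gene RT1-Db1 rose (0.98 ± 0.28) and the class I gene RT1-A2 fell (-0.57 ± 0.16). Both C3ar1 and RT1-Db1 lie below the median level, where calls are less certain. Of 16 axon guidance genes, the repellent Sema3a (0.66 ± 0.15) and the ephrin receptor Epha7 (0.45 ± 0.13) rose. Of 21 ion pump genes, the sodium-calcium exchanger Slc8a1 (0.43 ± 0.11) and Fxyd7, a regulator of the sodium pump (0.41 ± 0.10), rose, and of 10 chromatin genes the deacetylase Hdac1 did (0.55 ± 0.17). Each of these shares can be read against the 6.33% of named genes that rose and the 1.74% that fell. The single calls in the thalamic and hippocampal lists were Calb2 and Calb1, and Drd2 was the only one called of 18 dopamine and noradrenaline genes.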
